A study of Drosophila melanogaster with 2 samples.

Results

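In posterior midguts with induced RNAi against Gli, 106 Drosophila melanogaster genes listed under a CG number had at least 2.5 times the control level. The RefSeq gene table now gives 29 of them another symbol. A CG number is an annotation identifier that FlyBase, the database of the fly genome, gives to a predicted gene before any work on it has produced a name. The 106 genes were chosen on the measured values themselves. For each of 13822 loci the transcript with the highest mean read count was kept, and its level was expressed as CPM, its reads scaled to the same total of reads on these transcripts in every library. A CG-numbered locus was taken when it had a mean of at least 50 reads over the induced libraries and when the induced mean CPM plus 0.5, divided by the control mean CPM plus 0.5, was at least 2.5. This quotient is called the ratio below. Of 3312 CG-numbered loci with enough reads, 107 passed the ratio, and 1 of these belongs to 6 loci that the rule leaves out by name. Because the difference between the conditions chose the genes, their values are given as a description and without a test.

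The targeted gene, Gli, encodes gliotactin of the tricellular junction, where the corners of neighbouring epithelial cells meet. The posterior midgut is an absorptive epithelium of enterocytes, with hormone-secreting enteroendocrine cells and the progenitors that renew both, and a chitin-containing peritrophic matrix lines its lumen. Genes that still carry only a CG number are mostly protein-coding genes found by gene prediction, so that a level and a position are often all that is known of them.

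Poly(A) RNA of posterior midguts was sequenced from females aged 9 days in 2 conditions, with 3 libraries each. All flies carried 5966GS-GAL4; UAS-Gli-RNAi, in which a GeneSwitch driver turns on the RNAi transgene in enterocytes when the steroid RU486 is given. Induced flies received RU486 (RU+) and control flies received ethanol (RU-), and the labels enter both under wild type as genotype/variation. The labels give 75 midguts per condition, pooled at RNA extraction, and call the libraries biological replicates, so that p-values reflect library-to-library spread that may be technical. RU486 came with the knockdown in every induced library, so that an effect of the drug cannot be told apart from that of the transgene. Bulk RNA has a further limit, since more cells of a type and more RNA per cell cannot be told apart.

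The induced libraries held 8111031 to 14303722 reads on the kept transcripts and the control libraries 6821908 to 10914491. Gli stood at 97.6, 98.4 and 101 CPM in the induced libraries and at 202, 193 and 174 CPM in the controls. It fell by 1.13 ± 0.059 on the log2 scale (SE, adjusted p = 1.2e-09, quasi-likelihood test of edgeR). Log2 fold changes here and below use the scaling of edgeR, not the library totals of CPM. All 10 enterocyte markers on a list of such genes were detected, with a summed level of 12107 to 12352 CPM in the induced and 9950 to 11050 CPM in the control libraries. Without mesh, the most abundant of them, the sums overlapped, at 8607 to 8768 CPM and 8469 to 9229 CPM.

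The 106 genes took 1.66%, 1.59% and 1.62% of the reads in the induced libraries, and 0.339% in each of the 3 control libraries. The ratio had a median of 4.06 and ran from 2.501 to 702. It was 10 or more for 13 genes, 5 to under 10 for 25, 3 to under 5 for 43 and under 3 for the remaining 25. The libraries of the conditions did not overlap for any of the 106 genes, against 53.6% of all 6989 loci with at least 50 induced reads for which every induced library was higher. Nothing is read from this count, since the rule used the same contrast. For 105 genes the lowest induced library was at least 2 times the highest control library. The exception was CG18179, with 6.92, 7.52 and 9.77 CPM in the induced and 4.10, 2.84 and 1.61 CPM in the control libraries. Nothing is read from this count either, for the same reason, and its share over all loci was not counted.

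**Figure D1:**
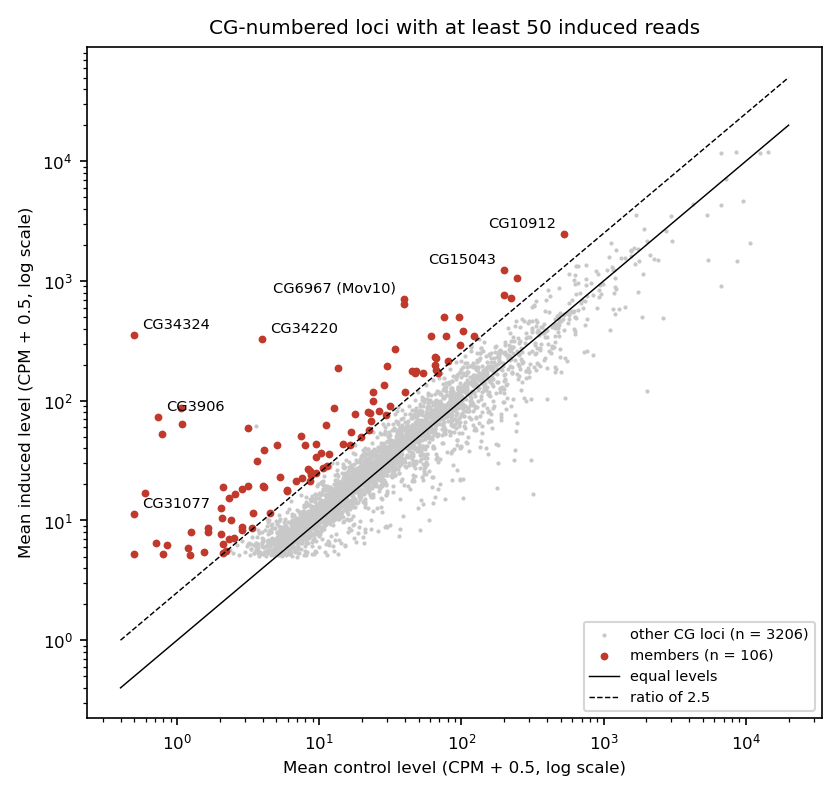
Each point is a CG-numbered locus with at least 50 induced reads, by its mean level in the control (x axis) and induced (y axis) libraries, both as CPM plus 0.5 on a log scale. The 106 genes described here lie on or above the dashed line of ratio 2.5, with CG34324 at the left edge because none of its reads came from a control library.

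A ratio this high was about as frequent among CG-numbered loci as among other loci. It was reached by 3.23% of the CG-numbered loci with at least 50 induced reads, by 3.56% of 3677 loci with another symbol and by 3.41% of all such loci. In the other direction, a ratio of 0.4 or less was found for 3.72% of 3068 CG-numbered loci with at least 50 control reads and for 2.28% of 3459 other loci. At the border of the rule, CG5630, CG42788 and CG10283 were the nearest over the ratio, at 2.501, 2.501 and 2.503, and CG10000 (2.49), CG5447 (2.49) and CG8785 (2.48) the nearest under it. CG32557, CG30082 and CG11470 were nearest over the read minimum with means of 51.3, 51.7 and 52.0 induced reads, and CG33958 (49.3), CG10722 (48.3) and CG8478 (48.0) nearest under it. A further 33 CG-numbered loci passed the ratio with too few reads. The authors' deposited table of 3049 genes lists all 106 and gives a log2 fold change for 103, all positive, with a median of 1.88 and a range of 1.08 to 8.09. It compares the same conditions that the rule used, so nothing is read from the listing or the signs. Under TMM scaling, the between-library scaling of edgeR, 89 of the 106 kept a ratio of 2.5 or more. The 3 that the authors' deposited table lists with no fold change, CG34324, CG31077 and CG32557, are the genes without a read in any control library.

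The most abundant of the 106 genes was CG10912, a gene of 2 exons on chromosome 2R (13943568 to 13944564 on the minus strand, in the unnamed genome build of the deposited table). It stood at 2540, 2405 and 2433 CPM in the induced and at 532, 530 and 523 CPM in the control libraries. The controls lay within a narrow band far under the lowest induced library, and the ratio was 4.65. CG15043 on chromosome X followed with 1245, 1209 and 1230 CPM against 205, 189 and 204 CPM. CG31041 on chromosome 3R reached 766, 758 and 750 CPM against 202, 189 and 208 CPM. Both had 2 exons and transcripts of 691 and 690 bases, and in both every control library lay far under every induced one.

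CG10910, at 499.8 ± 17.0 CPM in the induced libraries (SD, n = 3) and 95.3 ± 2.80 CPM in the controls, lies on chromosome 2R as well, from 13907754 to 13909911. CG42335 on chromosome 3R stood at 384 ± 10.4 CPM against 101 ± 11.1 CPM. With the named genes given below, the 10 highest induced levels summed to 0.897% of all reads in the induced and 0.175% in the control libraries. These 10 genes accounted for 55.2% of the reads of the 106 in the induced libraries. Levels did not drop sharply after them, with CG42335 at 384 CPM and CG34324, the eleventh, at 351 CPM. The induced level was at least 100 CPM for 32 genes, 10 to under 100 CPM for 53 and under 10 CPM for 21. In the controls 14 genes were under 1 CPM, 44 between 1 and 10, 41 between 10 and 100, and 7 at 100 CPM or more.

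Corrected for transcript length, as CPM per kilobase of transcript (RPKM), CG10912 stayed first and the much shorter Acbp3 came second. CG10912 had 2718 RPKM in the induced and 584 RPKM in the control libraries, and Acbp3 had 2603 RPKM against 604 RPKM. CG15043 had 1777 RPKM against 288 RPKM, and CG31041 had 1099 RPKM against 289 RPKM. CG34324, which came eleventh by CPM, had 359.9 RPKM against 0. CG6891 on chromosome X had 347 RPKM against 123 RPKM, CG7298 on chromosome 3L had 263 RPKM against 45.6 RPKM and CG8353 on chromosome 2L had 257 RPKM against 39.3 RPKM. In CPM, CG7298 was at 342, 353 and 348 in the induced and 60.4, 60.0 and 60.4 in the control libraries, far apart and even within each condition.

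**Figure D2:**
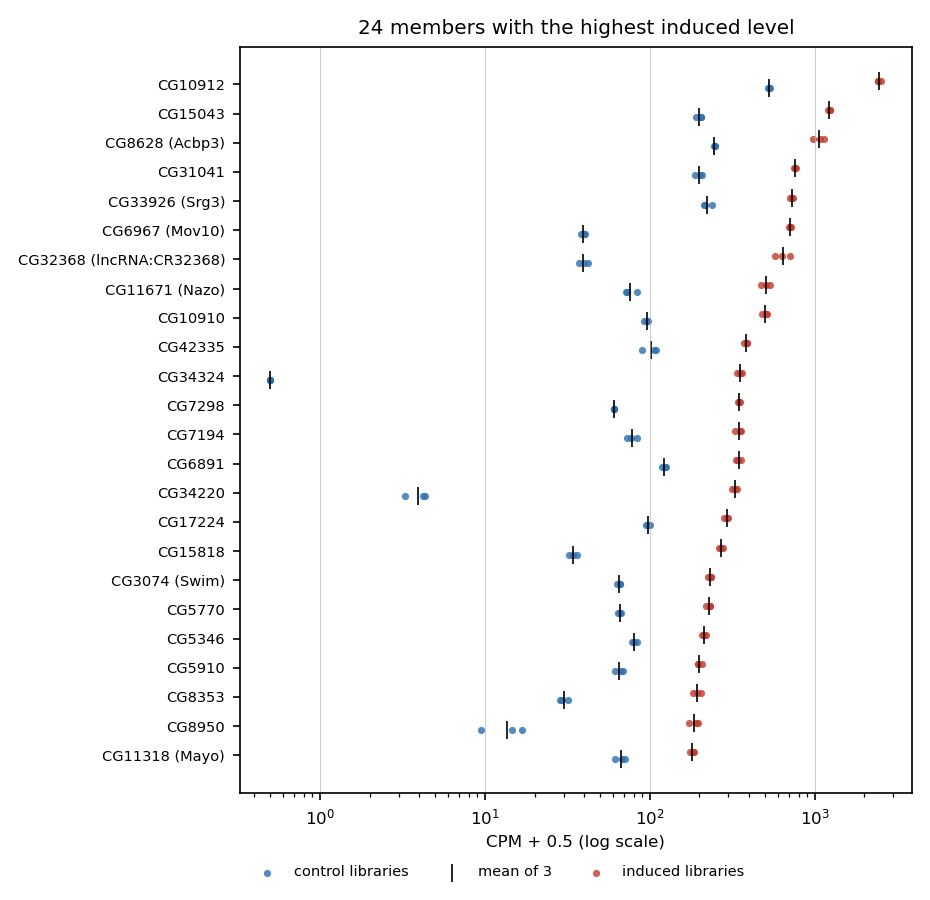
Levels of the 24 genes with the highest induced mean in each library, as CPM plus 0.5 on a log scale, with induced and control libraries in separate colours and a tick at the mean of 3. In every row the induced points lie to the right of the control points, and CG34324, CG34220 and CG8950 stand out by their low control levels.

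The genes with the highest ratios were those nearly silent in the controls. CG34324 stood at 339, 362 and 351 CPM in the induced libraries, 11304 reads in all, and had no read in any control. Against a floor of 3 reads for all controls together, its level was at least 2910-fold higher in the induced libraries. CG31077 had 346 induced reads at 10.3, 11.8 and 10.3 CPM and none in the controls, at least 89.1-fold higher. CG32557, since named Mco4 for its place among the multicopper oxidases, had 154 induced reads at 4.68, 5.05 and 4.58 CPM and none in the controls, at least 39.6-fold higher. These bounds cover counting error only.

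CG6839 had 529 reads in the induced libraries, at 15.2, 18.4 and 16.3 CPM, and 2 reads in the controls, both in 1 library. The ratio of its scaled totals was 204, with an exact (Clopper-Pearson) 95% interval of 56.3 to 1691 that covers counting error only. Another 5 genes with a ratio over 50 had a few reads in the controls. CG3906 was at 75.4, 70.3 and 71.7 CPM against 0.546, 0 and 0.147 CPM, a ratio of 99.8. CG34220 was the only one of the 5 over 1 CPM in the controls, with 328, 340 and 313 CPM against 3.69, 3.85 and 2.79 CPM. CG14645 had a ratio of 81.7, CG14125 of 67.3 and CG7567 of 59.3, at induced means of 86.3, 51.8 and 63.5 CPM and control means of 0.561, 0.277 and 0.579 CPM. CG34324 lies inside the span of Neto, a gene on the opposite strand that had next to no reads, at means of 0.0898 CPM in the induced libraries and 0 in the controls. CG34220 lies inside the span of oys on the same strand, and oys itself stood at 191 CPM in the induced and 140 CPM in the control libraries.

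The RefSeq gene table, matched by Entrez identifier, gives another symbol for 29 of the 106. One of these is a long non-coding RNA (lncRNA:CR32368) and one has only a newer CG number (CG33173, now CG43672). No match was found for CG34319 and CG4641. Genes with no name in RefSeq numbered 77, with a median ratio of 4.46 and a median induced level of 42.2 CPM. The named genes fall into a few roles, which were grouped after their values were seen.

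Antiviral and RNA silencing genes numbered 3. Nazo and Srg3 are known in flies as targets of STING, an antiviral pathway set off by cyclic dinucleotides, and Mov10 bears the name of an RNA helicase known from vertebrates. Mov10 (CG6967) was at 721, 702 and 708 CPM in the induced and 37.9, 40.0 and 39.3 CPM in the control libraries, a ratio of 18.0. Nazo (CG11671) was at 534, 469 and 506 CPM against 71.5, 72.4 and 82.7 CPM. Srg3 (CG33926) was at 727, 710 and 738 CPM against 215, 214 and 238 CPM. Their induced levels were close to one another, while their control levels ran from 39.1 to 222 CPM.

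Lipid, metal and detoxification genes numbered 5. Acbp3 (CG8628) and Acbp6 (CG15829) encode acyl-CoA binding proteins, which carry activated fatty acids in the cell. Acbp3 was the third most abundant of all 106 genes, at 1132, 971 and 1083 CPM in the induced and 246, 247 and 247 CPM in the control libraries. Acbp6 was rarer, at 63.3, 53.0 and 59.4 CPM against 3.14, 3.48 and 1.32 CPM, and had the larger ratio, 18.8 against 4.30. MtnE (CG42872) encodes a metallothionein, a small protein that binds metal ions, and at 346 bases has the shortest transcript of the 106. It reached 190, 146 and 175 CPM against 41.7, 48.6 and 49.4 CPM. Ugt301D1 (CG10178), of the UDP-glycosyltransferases that couple sugars to small molecules, had 62.3 ± 0.292 CPM against 10.6 ± 0.564 CPM.

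A group of 6 genes serves DNA replication and the cell cycle. PolD2 encodes a subunit of DNA polymerase delta, Ctf4 a part of the replication machinery, Claspin a mediator of the replication checkpoint and elg1 an unloader of the sliding clamp. Rif1 controls the timing of replication, and Skp2 is a substrate receptor of a ubiquitin ligase. All 6 were of low abundance, with induced means of 6.542 to 23.3 CPM and control means of 1.83 to 8.19 CPM. Their ratios lay close together, from 2.74 for elg1 to 3.37 for Rif1. Skp2 and elg1 overlap CG14645 and CG5157 on the opposite strand and may share reads with them, as given below. Claspin was at 8.74, 7.52 and 8.47 CPM in the induced and 2.60, 2.75 and 1.76 CPM in the control libraries. PolD2 was the least even of the 106 across the induced libraries, at 8.53, 5.92 and 9.07 CPM, with a coefficient of variation of 21.5%.

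Signalling, cytoskeletal and secreted proteins made up 10 genes, with ratios of 2.501 to 9.42. Erasp (CG30090) had the largest, at 37.8, 39.4 and 36.6 CPM against 4.23, 3.57 and 2.93 CPM. Swim (CG3074), whose secreted product binds the Wingless ligand, was the most abundant at 224, 235 and 235 CPM against 65.2, 62.5 and 65.1 CPM. Mayo (CG11318) stood at 181 ± 5.85 CPM against 66.1 ± 4.47 CPM and Lrch (CG6860), a leucine-rich repeat protein, at 67.0 ± 1.53 CPM against 22.7 ± 5.82 CPM. Dtg (CG6234), whose name stands for a target of Dpp signalling, stood at 54.7 ± 3.73 CPM against 16.1 ± 2.44 CPM. The other 5 were rau, RhoGEF3, babos, hdly and axed, with ratios of 2.501 to 4.54. Atg18b (CG8678), of the autophagy machinery, had a ratio of 3.52 and Cnx14D (CG9906), a calnexin chaperone of the endoplasmic reticulum, one of 2.54.

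The long non-coding RNA, CG32368, is a single exon of 419 bases on chromosome 3L (7908536 to 7908954, plus strand). It stood at 710, 574 and 634 CPM in the induced and 36.5, 39.2 and 41.6 CPM in the control libraries, a ratio of 16.2, and was the seventh most abundant of the 106.

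**Figure D3:**
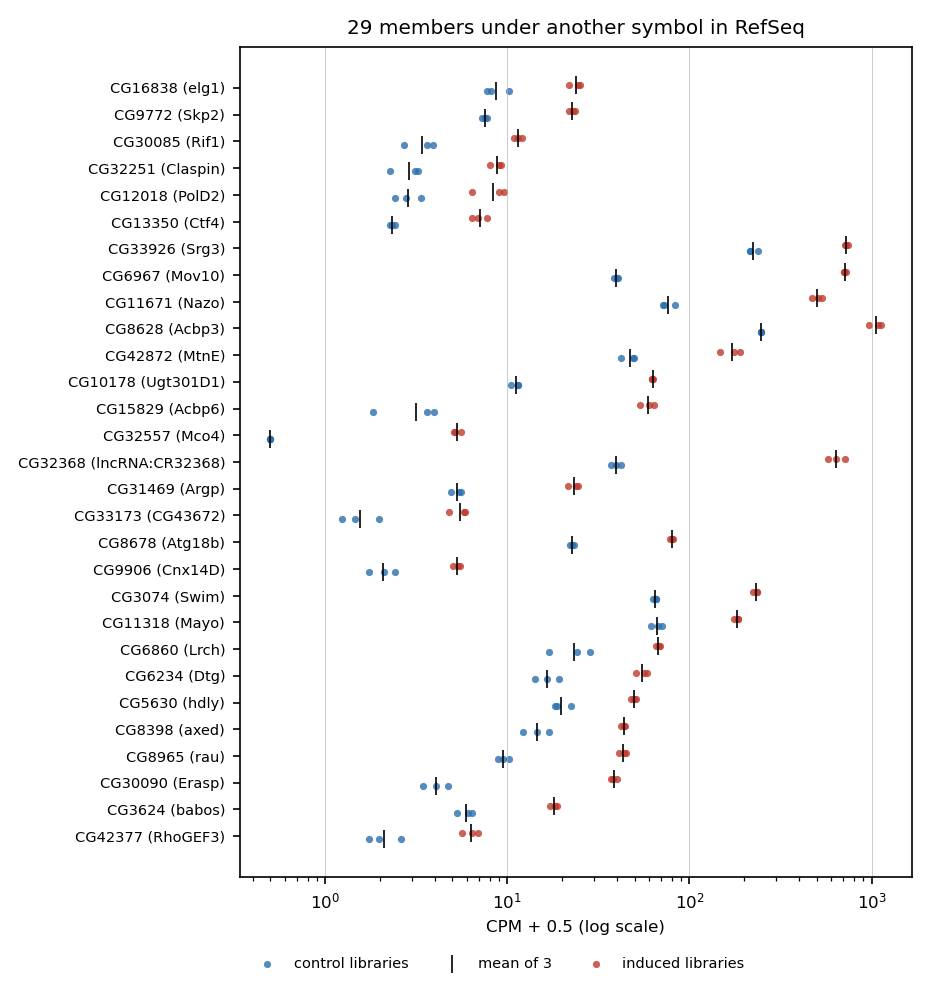
Levels of the 29 genes that RefSeq lists under another symbol, in each library, as CPM plus 0.5 on a log scale, grouped by role. Acbp3, Srg3, Mov10, the long non-coding RNA and Nazo lie at the right, and the replication genes lie low in both conditions.

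Both CG numbers without a match appear in RefSeq as synonyms of a neighbouring gene, and whether their reads belong to that gene was not tested. CG34319 lies 0.4 kb from Hk, which encodes the beta subunit of a potassium channel, and was at 7.48, 6.41 and 7.68 CPM against 1.64, 1.10 and 1.91 CPM. Hk itself rose by 1.13 ± 0.209 on the log2 scale (adjusted p = 3.9e-04, edgeR). CG4641 lies 1.2 kb from nwk, which encodes an F-BAR protein of the synapse, and was at 21.8, 19.2 and 21.2 CPM against 6.70, 6.14 and 6.30 CPM. nwk rose by 1.56 ± 0.163 on the log2 scale (adjusted p = 1.9e-06, edgeR). Hk and nwk are given because CG34319 and CG4641 passed the ratio, and where a locus is split in the annotation the values are not separate measurements. The p-values of Hk and nwk are therefore no separate support for CG34319 and CG4641.

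Transcripts of the 106 genes were short. Their median length was 1308.5 bases, against 1783.5 bases for the other 3206 CG-numbered loci with at least 50 induced reads, and 38.7% against 17.6% were under 1000 bases. The annotated coding length, known for 103, had a median of 1038 bases against 1305. Single-exon transcripts were 14.2% against 11.4%. Chromosome arms 3L and 2R held 31 and 26 of the genes, 29.2% and 24.5% against 19.8% and 19.5% of the other CG-numbered loci, and arms 3R, X and 2L held 25, 13 and 11. The strands were near even, with 52 on plus and 54 on minus.

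The shares of CG-numbered loci past each ratio were also split by transcript length. Of the 606 under 1000 bases with enough induced reads, 6.77% passed the ratio of 2.5, against 2.44% of the 2706 longer ones. At a ratio of 0.4 or less the shares were 5.20% of 538 and 3.40% of 2530. Among loci with other symbols, 2.69% of the short and 3.70% of the long passed the ratio of 2.5. Library composition differed with length too, since short loci were lowest in induced replicate 2 in 50.3% of all cases and long loci in 33.7%, and its part in these shares was not tested.

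Of the 106 genes, 31 lie within 10 kb of another one, in 13 runs. How often other loci lie this close together was not counted, so the number does not show clustering. Some runs hold genes that overlap each other on opposite strands, as given below. A run of 4 lies on chromosome 2R between 13931551 and 13944564, and holds CG5770, CG34005, CG14495 and CG10912. CG5770 was at 230, 231 and 219 CPM against 64.1, 65.8 and 66.0 CPM, and CG14495 at 171, 173 and 168 CPM against 65.6, 66.9 and 70.4 CPM. CG34005 was far lower, at 16.9, 20.1 and 19.3 CPM against 2.87, 4.21 and 3.52 CPM. The 3 loci between them also rose. Muc55B, which encodes a mucin, rose by 0.86 ± 0.110 on the log2 scale (adjusted p = 1.3e-05, edgeR). CG10911 and CG5767, named here after their values were seen, had log2 fold changes of 0.59 ± 0.057 and 0.25 ± 0.055, with adjusted p-values of 7.0e-07 and 0.0017 in the same test. CG10911 was more abundant than any of the 106 genes, at 11623 CPM in the induced and 6742 CPM in the controls.

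Runs of 3 were found at 3 places. CG7567, CG11470 and CG31041 lie within 3.66 kb on the minus strand of chromosome 3R, from 25412958 to 25416616, with no other locus between them. Their induced means were 63.5, 4.65 and 758 CPM, and their control means 0.579, 0.728 and 199.7 CPM, so that neighbours on one strand differed widely in level and in ratio (59.3, 4.20 and 3.79). CG6933, CG17145 and CG17147 lie within 6.79 kb of chromosome 3L, from 20211602 to 20218393, at ratios of 3.55, 4.69 and 4.86. The third run holds CG8950, Mov10 and CG30460 on chromosome 2R, from 12947368 to 12968762. CG8950 stood at 174, 189 and 196 CPM in the induced and 16.3, 14.2 and 8.94 CPM in the control libraries, a ratio of 13.7.

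The other 9 runs were pairs. Acbp6 and Acbp3 lie within 2.60 kb of each other on chromosome 3L, on one strand. Nazo neighbours CG11672, which was at 5.68 ± 0.859 CPM against 0.353 ± 0.200 CPM, a ratio of 7.25 at a far lower level than Nazo. CG14645 adjoins Skp2, CG5157 adjoins elg1, CG30082 lies near Erasp, and CG31077 lies near CG6296. Of the 13 runs, 9 held no other locus and 3 were on one strand.

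**Figure D4:**
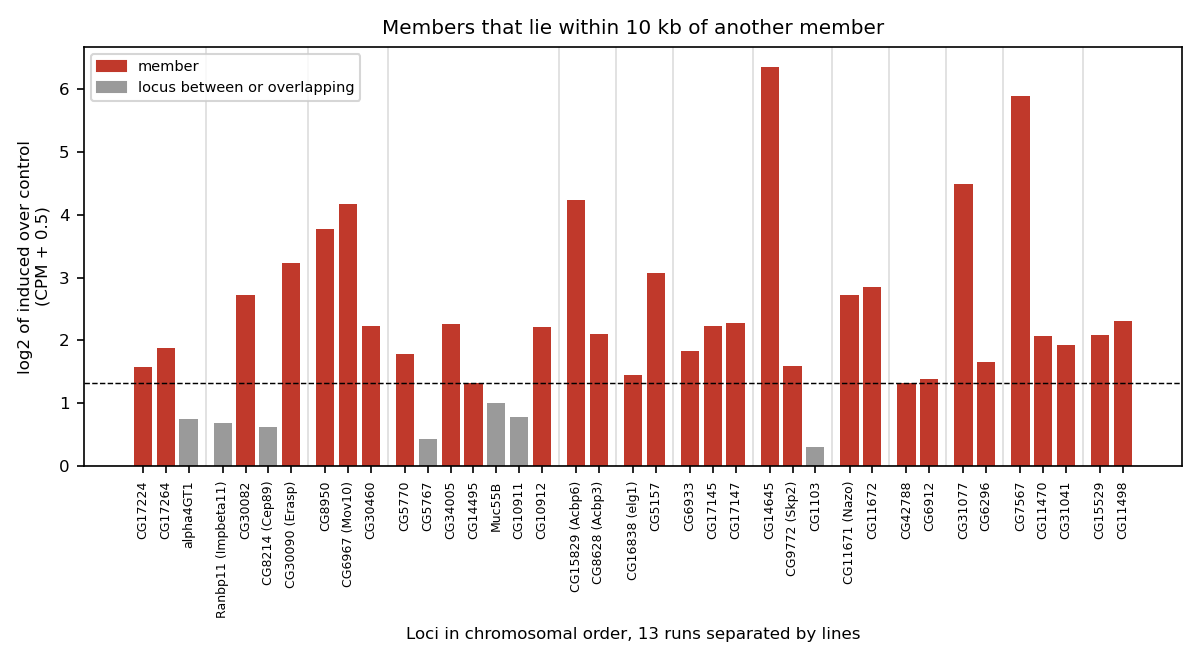
Log2 of the ratio for every locus in the 13 runs of members within 10 kb of each other, in chromosomal order, with members and other loci in different colours. Members of a run differ in height, as in the run of CG7567 (ratio 59.3), CG11470 (4.20) and CG31041 (3.79).

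Overlap of annotated genes limits some of these values. Spans of 35 of the 106 genes overlap another locus, and 31 of these overlap one with at least 10 reads, in 28 cases on the opposite strand. Whether reads were counted by strand is not given in the sources used here, so reads of such pairs may be shared. A transcript clear of an opposite locus is listed for 3 genes only, CG30460, CG17544 and Skp2. For CG17544 the transcript clear of CG31798 had a ratio of 3.71, and the 3 that overlap it had 3.73 to 3.74. For Skp2 the 3 transcripts clear of CG1103 had ratios of 2.60 to 3.33, and the one that overlaps it 3.03. CG30460 differed, since 8 of its 9 listed transcripts overlap the end of Mov10 by 576 bases and had ratios of 4.68 to 5.79. The remaining one, which starts past the end of Mov10, had 150, 93 and 111 reads in the induced and 76, 119 and 62 reads in the control libraries, a ratio of 1.08. Of the reads counted on the most abundant transcript of CG30460, 91.3% to 92.2% in the induced and 61.4% to 66.3% in the control libraries lay outside the clear transcript. How many of them came from Mov10 was not tested. All Skp2 transcripts overlap CG14645 on the opposite strand, the one with the ratio of 2.60 by 74 bases and the other 3 by 95 bases. elg1 overlaps CG5157 by 208 bases, at ratios of 2.74 and 8.41.

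Of the 106 genes, 28 had several listed transcripts. The ratio was under 2 in a transcript of CG30460 alone. For CG42747 it ran from 4.84 to 9.05. The order of the 2 most abundant transcripts changed between conditions for hdly (CG5630) and axed (CG8398), whose pairs had ratios of 2.34 and 2.501 and of 2.96 and 2.98.

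Levels of the loci next to the 106 genes were not used by the rule. The nearest locus with a name on each side was taken, and CG-numbered neighbours were left out, since the rule had sorted them by the same ratio. A locus listed under several joined identifiers counts here as named. Hk and nwk, which may not be separate from CG34319 and CG4641, are among these loci, and the counts are also given without them. RhoGEF3, the named neighbour 7.47 kb from CG42377, carries a symbol that RefSeq now gives to a gene of the 106. It may not be separate either, was called higher, and was kept in the counts of all neighbours and of those beyond 5 kb. Of 170 such loci 114 were tested, and 52 were higher and 24 lower in the induced libraries (edgeR quasi-likelihood test, adjusted p under 0.05), that is 45.6% and 21.1%. Across all 8236 loci tested, 27.6% were called higher and 26.8% lower, and among all 4175 named loci 32.0% were called higher. The median log2 fold change of the neighbours was 0.20, against 0.07 over named loci and 0.03 over all loci. Scaled to library totals, which moves the median of all loci to 0.22, the neighbours gave 68 higher and 10 lower. Without Hk and nwk, 50 of 112 were higher (44.6%) and 24 lower.

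Within 5 kb, 32 of 60 neighbours tested were higher and 10 lower, with a median of 0.24. Beyond 5 kb, 20 of 54 were higher and 14 lower, with a median of 0.09. Without the loci that overlap one of the 106 genes, the nearer class had 24 higher and 9 lower of 49 tested, a share of 49.0%. Without Hk and nwk as well, 22 of 47 were higher (46.8%), and with the overlapping loci kept, 30 of 58 (51.7%). Whether the nearer and farther classes differ was not tested.

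The neighbour with the largest change was Damm, which encodes a caspase and lies 0.236 kb from CG42531. It was at 752, 729 and 730 CPM in the induced and 97.8, 99.1 and 111 CPM in the control libraries and rose by 2.66 ± 0.063 on the log2 scale (adjusted p = 3.0e-13, edgeR). CG42531 itself was at 15.8, 12.7 and 16.5 CPM against 1.37, 2.38 and 1.76 CPM. Gpo1, which encodes a mitochondrial glycerophosphate oxidase and lies 2.35 kb from Rif1, rose by 1.94 ± 0.058 (adjusted p = 3.3e-12, edgeR). pbl, a cytokinesis gene that lies 3.48 kb from the non-coding CG32368, rose by 1.45 ± 0.124 (adjusted p = 2.2e-07, edgeR). Lrt, which overlaps CG16799, rose by 1.60 ± 0.447 (same test, adjusted p = 0.0079) from low levels of 0.581 CPM in the controls. fat-spondin, 0.557 kb from CG8950, fell by 1.17 ± 0.291 (same test, adjusted p = 0.0036), at 0.874 CPM against 1.76 CPM. Within 5 kb, the most abundant neighbours not past the threshold were Ran at 0.06, Pep at -0.08 and Klp10A at 0.27 on the log2 scale.

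**Figure D5:**
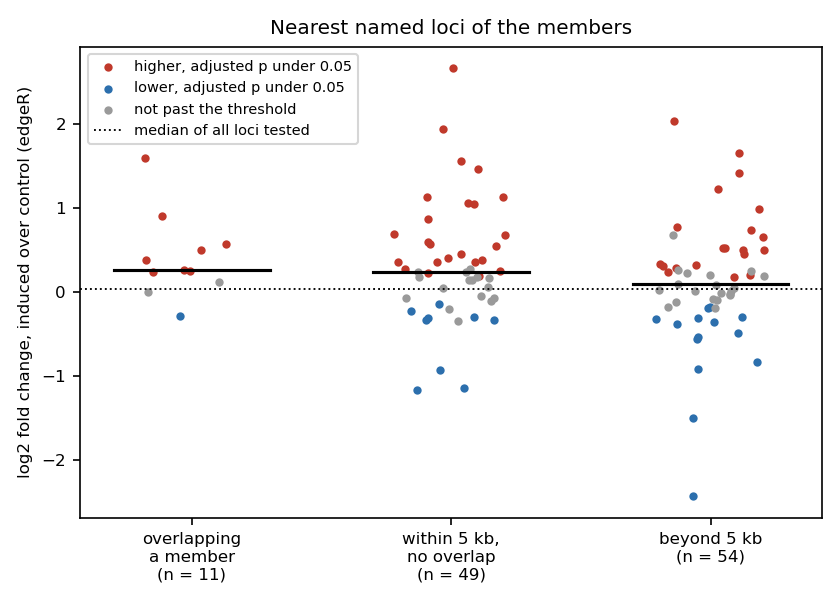
Log2 fold change (edgeR, induced over control) of the nearest named loci of the 106 genes, by their distance from the gene, with loci past the adjusted p threshold in colour and the median of all loci tested as a dotted line. Damm stands highest at 2.66, and the black bars mark medians of 0.26 for overlapping loci, 0.23 for others within 5 kb and 0.09 beyond.

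Lists of known genes were read in the same fit to place the 106 beside the tissue's cell types. For all list counts here and below, the shares over all 8236 loci tested are 27.6% higher and 26.8% lower. Peritrophic matrix, mucin and chitin genes build and remodel the gut lining. Of 41 such genes found, only 19 had enough reads to test. Of these 13 were higher and 3 lower, with a median log2 fold change of 0.93. The summed level of all 41 was 3080 to 3212 CPM in the induced and 1068 to 1143 CPM in the control libraries. Most of the induced sum, but not of the control sum, was Mur29B, a mucin-related gene chosen here after its values were seen. Mur29B stood at 2081 CPM against 346 CPM (log2 fold change 2.40 ± 0.049, adjusted p = 1.0e-13, edgeR). Without it the sums were 1019 to 1074 CPM and 742 to 788 CPM. Muc68D rose by 7.43 ± 0.141 (adjusted p = 6.0e-14, edgeR), from 0.496 CPM to 96.5 CPM. Cht8 and Cht2, which encode chitinases, rose by 3.51 ± 0.242 and 3.23 ± 0.277, Cda9 by 3.05 ± 0.562, and Mur18B fell by 2.35 ± 0.063. Gasp at 0.17 and Cda5 at 0.48 did not pass.

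Markers of intestinal progenitors moved as well, with 9 of 10 higher, mira alone lower and a median of 1.51. Their summed level was 522 to 544 CPM in the induced and 189 to 218 CPM in the control libraries, and none was without reads. Of the enterocyte markers 5 of 10 were higher and 3 lower, with a median of 0.18. Of the enteroendocrine markers 1 of 11 was higher and 7 lower, with summed levels of 624 to 658 CPM against 731 to 761 CPM. Fat body markers were lower in 4 of 4 tested, at 141 to 145 CPM against 344 to 355 CPM. Malpighian tubule and hindgut markers were lower in 6 of 8 and higher in 1. Their summed level was nevertheless higher, at 312 to 336 CPM in the induced and 282 to 306 CPM in the control libraries. Without drm, the 1 that rose, the sums were 158 to 169 CPM and 184 to 192 CPM. Copper cell markers were lower in 3 of 3. Of 9 visceral muscle genes 2 were higher and 1 lower, with a median of -0.09. Their summed levels were 1563 to 1623 CPM in the induced and 1267 to 1382 CPM in the control libraries. Summed levels are scaled to library totals and the calls by TMM, which put the median of all loci at 0.22 and 0.03. Of the proventriculus, crop and salivary gland genes 2 of 4 were higher and 2 lower. Of the haemocyte genes 1 of 2 was higher, with eater and He without reads. The 1 higher was Pxn, at 3.76 CPM in the induced and 1.75 CPM in the control libraries. Pxn overlaps CG16986 by 87 bases on the opposite strand and may share reads with it. The germline and eggshell genes were too low to test, at 0.559 to 0.863 CPM in the induced and 2.19 to 2.29 CPM in the control libraries. The part of the cell makeup in the levels of the 106 genes was not tested.

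The rule chose large differences, so spread between libraries is set only beside that of the other CG-numbered loci with at least 50 induced reads. Their median coefficient of variation was 4.98% in the induced and 7.40% in the control libraries. The coefficient of variation of the 106 genes had a median of 4.75% in the induced libraries, with CG12018 (PolD2, 21.5%), CG18179 (18.6%) and CG11498 (17.6%) highest. In the controls, where levels were lower, the median was 10.9%. The highest control values, 173% for CG6839, 122% for CG3906 and 89.3% for CG34451, were those of genes with few reads.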

How the data were processed

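The authors deposited a transcript table with raw read counts per transcript in 6 libraries, per the file headers, and a gene table with log2 fold changes and p-values of their own, also per the file headers. DESeq is named in the submitters' processing notes. For the aligner, counter, strandedness and build, the entry is the same: not given in the sources used here. Reads in a shared exon were counted on each transcript, so 1 transcript per locus, that with the highest mean count, was kept. Levels are CPM of these transcripts, and RPKM divides them by the transcript length deposited with the table. Levels and ratios are scaled to library totals and log2 fold changes by TMM. The median log2 fold change over all loci was 0.22 under library totals and 0.03 under TMM. Levels therefore sit higher in the induced libraries than the log2 fold changes beside them imply. The authors' log2 values were only listed.

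Tests used edgeR 4.0.16 (R 4.3.3) with its quasi-likelihood fit, TMM scaling and filterByExpr, and p-values were adjusted by Benjamini-Hochberg over 8236 loci, with a threshold of 0.05. All 106 genes passed that filter, and no call is given for them. DESeq2 1.42.0 served as an alternative. The procedure was tested on simulated counts. Values after ± are SD over 3 libraries for levels and SE for log2 fold changes. Symbols were updated with the RefSeq gene table, which matched 12825 loci by Entrez identifier. Columns of other samples numbered 0.

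The genes and the lists were chosen with earlier results of these data known. Named are the 12 genes with the highest ratio, CPM or RPKM, up to 4 per role or run, those at the thresholds, the least even, and, of other loci, up to 4 past and 2 not past the threshold per list and up to 6 past and 3 not past among neighbours. Others are given to complete a run, pair or role, chosen after their values were seen. Replicate numbers did not pair the libraries, with correlations of deviations of -0.07, 0.02 and -0.07 between libraries of one number.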

Additional observations from a re-analysis of the deposited data

How the results depend on the processing

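The count of genes that met the rule was within 1.5 times 106 under every alternative but one, a ratio threshold of 2, which gave 168. A threshold of 3 gave 81, pseudocounts of 0.1 and 2 CPM gave 112 and 85, read minima of 20 and 100 gave 127 and 87, TMM-scaled CPM gave 89, all among the 106, and sums over the transcripts of a locus gave 97, of which 91 were shared. Leaving out 1 library gave 102 to 110. Scaling to library totals moved the calls over all loci from 2272 higher and 2204 lower to 3737 higher and 1512 lower, from 50.8% to 71.2% higher, and left 10 named neighbours lower in place of 24. This follows from its shift of the median log2 fold change from 0.03 to 0.22. Without 1 library, calls over all loci ran from 1951 to 2466 higher and from 1993 to 2492 lower, named neighbours from 43 to 52 higher and from 20 to 28 lower, and list genes from 31 to 36 higher and from 28 to 32 lower. With the replicate number as a block, 2168 loci were higher and 2113 lower. The DESeq2 Wald test gave 1817 and 1999, and no filter gave 2519 and 2339. Without neighbours that overlap one of the genes, an alternative chosen after seeing the data, 44 were higher and 23 lower, and without Hk and nwk, chosen likewise, 50 and 24. Per-list counts moved in 16 of their alternatives, mainly those of 1 enteroendocrine gene higher and 1 visceral muscle gene lower, which ran from 0 to 3. Named relatives by protein sequence were not run. Depth limits the genes with few control reads, whose ratios depend on the 0.5 CPM added.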

Other observations

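The libraries differed by transcript length. Of the 41 genes with a transcript under 1000 bases, 23 (56.1%) were lowest among the induced libraries in replicate 2, and of the 65 longer ones 28 (43.1%). Among the controls, 34 of the 65 longer genes (52.3%) were lowest in replicate 3, and 13 of the 41 shorter (31.7%). Over all loci with at least 50 induced reads, control replicate 3 was lowest for 56.0% of the longer and 20.4% of the shorter. MtnE and Acbp3, with transcripts of 346 and 408 bases, were both lowest in induced replicate 2, at 146 and 971 CPM. The groups did not overlap for either, but the rule chose both genes on this contrast, so nothing is read from it. Every induced library was above every control library for 53.6% of all 6989 loci with at least 50 induced reads.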
